A study of Mus musculus with 12 samples.

Results

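The genes described here are 8 markers of B cells and of plasma cells, the antibody-secreting cells that B cells become: Pax5, Ms4a1, Cd79a, Cd79b, Jchain, Mzb1, Ighm and Igkc. They were chosen by name, by matching the Ensembl IDs of the deposited count tables to GENCODE M21 symbols, and all 8 were found among 53379 gene IDs. RNA was measured in bulk in whole skin of mice aged 3 months, strain "C57BL/6 & B6D2", in 12 libraries that form 4 groups of 3. Control mice were Prss56Cre,R26tdTom, that is, a Cre recombinase under the Prss56 promoter with a Cre-dependent red fluorescent reporter. Nf1-KO mice were Prss56Cre,R26tdTom,Nf1flox/-, so every group carried the Cre and the reporter, and the null Nf1 allele of Nf1-KO mice was present in all their cells. Each genotype was sampled as uninjured skin and as skin 14 days after injury, which gives an uninjured and an injured group of either genotype. Nf1 encodes neurofibromin, a brake on RAS signalling, and the series title places its loss in boundary cap cells, embryonic cells at the nerve roots that give rise to Schwann cells. The labels do not say whether the 3 samples of a group are separate animals, so p-values measure the spread between these samples, which may be technical.

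A B cell recognises antigen through a membrane antibody, made of heavy and light chains, that signals through the CD79A and CD79B chains. Pax5 is the transcription factor that keeps B cell identity and is switched off when a B cell becomes a plasma cell, while Ms4a1 encodes the surface protein CD20, which plasma cells also lose. Plasma cells transcribe heavy chain genes (Ighm for IgM, Igha for IgA) and light chain genes (mostly Igkc in mice) at very high levels, together with Jchain, which links IgM and IgA into polymers, and Mzb1, a helper of antibody assembly in the endoplasmic reticulum. Normal mouse skin is known to hold few B cells.

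The counts given for Igkc came from the constant exon of the kappa light chain, which every kappa antibody transcript shares whatever its variable segment. Its first 300 coding bases on the plus strand (GENCODE M21 annotation of GRCm38, chr6:70726435-70726734) are shown because this short exon gave the largest rise among the 8 genes.
Igkc: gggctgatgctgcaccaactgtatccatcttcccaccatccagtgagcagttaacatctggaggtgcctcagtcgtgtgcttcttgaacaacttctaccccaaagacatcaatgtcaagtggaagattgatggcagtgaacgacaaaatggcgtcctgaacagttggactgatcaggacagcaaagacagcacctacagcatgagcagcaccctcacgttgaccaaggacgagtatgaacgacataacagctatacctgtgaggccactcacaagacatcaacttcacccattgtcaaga

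Promoter windows of 300 bases (250 before and 50 after the start, RefSeq, GRCm38.p6) were found for 3 of the 8 genes: Pax5, Jchain and Cd79a. Those of Pax5 (chr4:44710645-44710944, minus strand) and Jchain (chr5:88527848-88528147, minus strand) are shown, since these genes moved in opposite directions with injury. The RefSeq start used for Pax5 lies upstream of the 5′ end that GENCODE M21 gives the gene (44710487), so its window lies wholly outside the gene model used to name the counts. Capitals mark matches to the E-box CANNTG, which reads the same on both strands.
Pax5: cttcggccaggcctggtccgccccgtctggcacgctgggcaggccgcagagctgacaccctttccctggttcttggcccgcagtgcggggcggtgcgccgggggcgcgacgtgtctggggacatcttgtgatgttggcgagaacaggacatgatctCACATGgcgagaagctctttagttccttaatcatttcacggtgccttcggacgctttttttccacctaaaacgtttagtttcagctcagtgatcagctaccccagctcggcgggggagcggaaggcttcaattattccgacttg
Jchain: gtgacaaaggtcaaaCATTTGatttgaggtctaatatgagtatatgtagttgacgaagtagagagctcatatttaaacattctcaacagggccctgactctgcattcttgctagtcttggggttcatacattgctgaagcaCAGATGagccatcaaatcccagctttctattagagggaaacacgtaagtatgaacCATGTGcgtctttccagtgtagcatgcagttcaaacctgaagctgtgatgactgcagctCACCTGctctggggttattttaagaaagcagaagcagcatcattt

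The Pax5 window held 1 match and the Jchain window held 4. At least 1 match was found in 72.3% of all 32851 promoter windows of this length, so a match is a common feature. The octamer ATGCAAAT, the letters CCCNNGGG and the letters TATAAA, each searched on both strands, had no match in these windows, and were found in 1.74%, 13.7% and 13.6% of all windows.

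Library totals ran from 8817013 to 16809687 counts. Sex-linked genes differed by skin state: Xist, transcribed from the inactive X of females, had 9 to 26 counts without injury and 7336 to 10349 with it, while the Y-linked gene Ddx3y had 807 to 1448 and 0 to 1. Sex and skin state therefore cannot be told apart in any injury comparison. Olfactory and vomeronasal receptor genes of the nose, 1456 genes that skin is not known to express, were used as a measure of low-level signal. Their summed level was 0.0942 to 0.331 CPM (counts scaled to the library total) per kb of exon across the 6 uninjured libraries, and only 0.00223 to 0.0530 across the 6 injured libraries. It was highest in control uninjured 1 (0.331) and 2 (0.262) and, among injured libraries, in Nf1-KO injured 3 (0.0530) and 2 (0.0176). Nf1 itself stood at 9.41 to 17.2 raw CPM in control uninjured, 8.96 to 11.05 in Nf1-KO uninjured, 8.98 to 14.7 in control injured and 8.14 to 14.1 in Nf1-KO injured libraries. Counts per gene do not tell reads of recombined, null and intact alleles apart, so these levels were not used to check the genotype labels.

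With injury the genes of antibody chains and of antibody polymers were higher, and 2 genes of B cell identity were lower. Changes were tested with edgeR and called at an adjusted p under 0.05, and 7 of the 8 genes passed its filter on low counts; Cd79a did not. In control skin 5 of these 7 were called, 3 higher (Igkc, Cd79b, Ighm) and 2 lower (Pax5, Ms4a1). Injury moved much of the transcriptome: 55.3% of all 23635 genes tested were called, 22.8% higher and 32.5% lower. In Nf1-KO skin 5 of 7 were called, 4 higher (Igkc, Jchain, Cd79b, Ighm) and 1 lower (Pax5), against 37.4% of all genes, 19.1% higher and 18.4% lower. Averaged over both genotypes 6 of 7 were called, 4 higher and 2 lower, against 64.4% of all genes, 27.6% higher and 36.9% lower. The share of members called in control skin was thus not far above that of all genes. The median log2 fold change of the 7 was 0.93 in control and 1.52 in Nf1-KO skin, beside -0.21 and -0.09 for all genes tested. In whole tissue, fewer cells of a type and less RNA per cell cannot be told apart.

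**Figure D1:**
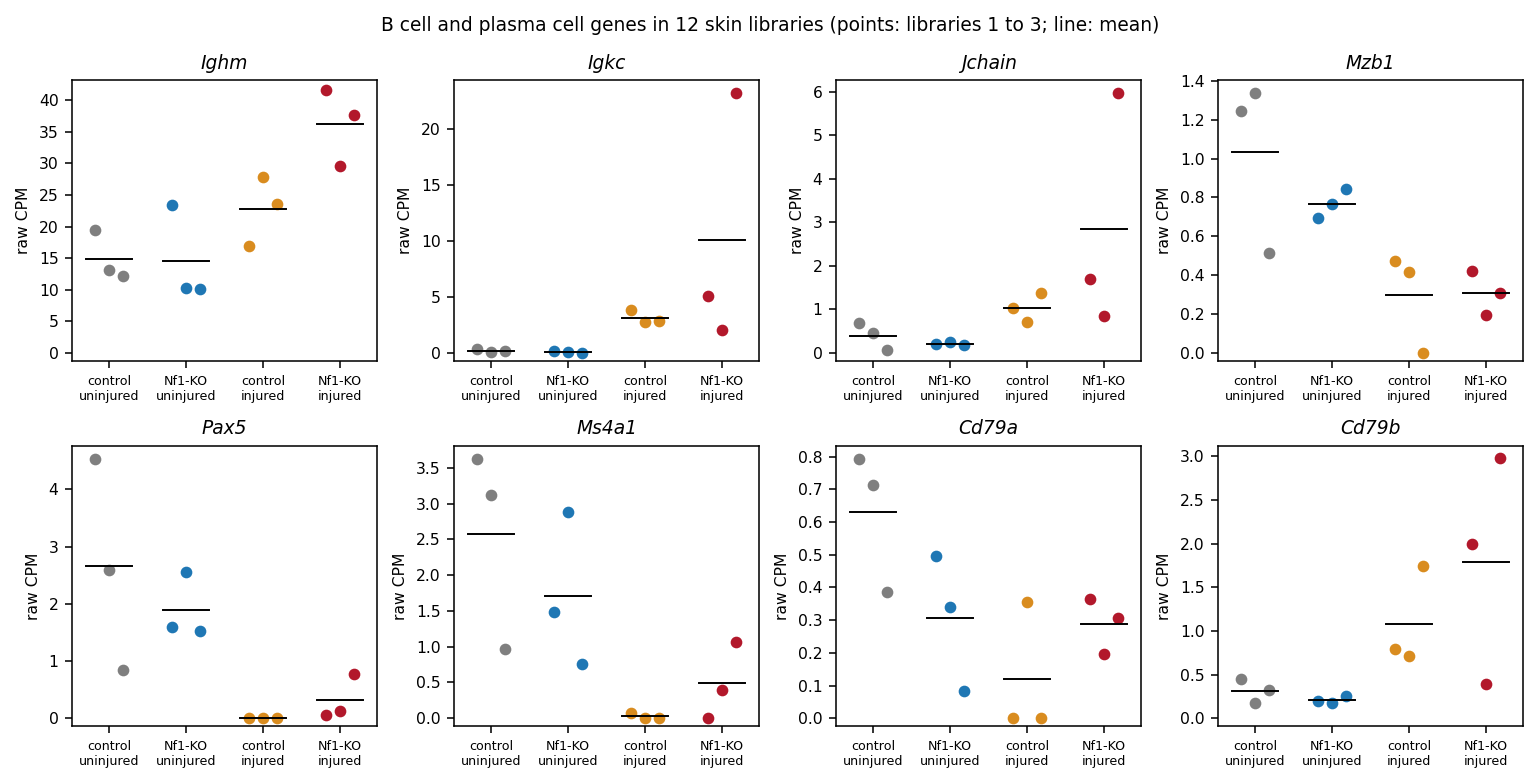
Raw CPM (scaled by the library total alone, linear axes from 0) of the 8 genes in the 12 libraries, with 1 point per library and a line at the group mean. Igkc lies at 0 to 0.340 in every uninjured library and at 2.03 to 23.2 in every injured one, whereas Pax5 is at 0 in all 3 control injured libraries.

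Ighm (chromosome 12, 113418558 to 113422730, GRCm38) encodes the constant region of the IgM heavy chain and had the most counts of the 8. It had 171, 147 and 190 counts in control uninjured libraries 1 to 3, and 236, 120 and 120 in Nf1-KO uninjured ones. In injured skin it had 214, 468 and 392 counts in control and 687, 450 and 493 in Nf1-KO libraries. After TMM scaling, edgeR's correction for library composition, the level was 13.1 ± 2.59 CPM in control uninjured and 24.9 ± 5.42 in control injured skin (SD, n = 3). In Nf1-KO skin it was 13.7 ± 6.48 and 39.4 ± 6.68 (SD, n = 3). Neither pair of groups overlapped on this scale (62.4% of all genes had groups that did not overlap in control skin and 51.6% in Nf1-KO skin), although Nf1-KO uninjured 1, at 21.1, stood above control injured 1, at 19.0. In raw CPM the control groups overlapped, with control uninjured 1 at 19.4 and control injured 1 at 16.9. The log2 fold change was 0.93 ± 0.29 in control skin (SE, edgeR adjusted p = 0.0117) and 1.52 ± 0.29 in Nf1-KO skin (adjusted p = 0.000803).

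Igkc (chromosome 6, 70726435 to 70726966), the kappa light chain constant gene whose exon is printed above, was almost without counts in uninjured skin. It had 3, 1 and 3 counts in control uninjured and 2, 1 and 0 in Nf1-KO uninjured libraries. It had 48, 46 and 48 counts in control injured libraries and 84, 31 and 303 in Nf1-KO injured ones. Every injured library stood above every uninjured one, as in 34.1% of all genes in either direction, and Nf1-KO injured 3 alone held 303 of the 418 counts of its group. Pooled over libraries, the level was 15.6-fold higher with injury in control skin (95% exact interval 7.39 to 39.6) and 105-fold higher in Nf1-KO skin (35.6 to 509, against 3 counts); the intervals cover counting error only. The edgeR log2 fold changes were 4.20 ± 0.92 (SE, adjusted p = 0.00187) and 6.88 ± 1.02 (adjusted p = 0.000173). Without Nf1-KO injured 3 the latter was 5.36 (edgeR adjusted p = 5.1e-05), and leaving out each other library in turn gave at most 7.71.

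Jchain (chromosome 5, 88519809 to 88527891), the joining chain of polymeric antibodies, had 6, 5 and 1 counts in control uninjured and 2, 3 and 2 in Nf1-KO uninjured libraries. It had 13, 12 and 23 counts in control injured and 28, 13 and 78 in Nf1-KO injured libraries. As for Igkc, no injured library overlapped an uninjured one, and Nf1-KO injured 3 was highest. The log2 fold change was 3.91 ± 0.86 in Nf1-KO skin (SE, edgeR adjusted p = 0.00237) and 2.75 without that library (adjusted p = 0.0129). In control skin it was 1.81 ± 0.81 and was not called (edgeR adjusted p = 0.0674), but it passed the threshold without control uninjured 1 (2.46, adjusted p = 0.0425) and without Nf1-KO injured 1, 2 or 3, which enter through the shared estimate of spread (1.84 to 1.88, adjusted p = 0.0332 to 0.0461).

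Mzb1, the assembly helper of plasma cells and marginal zone B cells, did not follow Jchain and the antibody chains. It had 11, 15 and 8 counts in control uninjured, 7, 9 and 10 in Nf1-KO uninjured, 6, 7 and 0 in control injured, and 7, 3 and 4 in Nf1-KO injured libraries. Its levels tended to the other side, with log2 fold changes of -1.46 ± 0.84 in control skin (SE, edgeR adjusted p = 0.149) and -1.12 ± 0.84 in Nf1-KO skin (adjusted p = 0.302), neither of them called. Averaged over genotypes the value was -1.29 ± 0.59 (edgeR adjusted p = 0.0668), and it was called with DESeq2 (-1.37, adjusted p = 0.0411), with limma voom (-1.60, adjusted p = 0.0269) and without control injured 1 (-1.50, edgeR adjusted p = 0.0496). Mzb1 shares exon sequence with another annotated gene on the same strand, so some of these few counts may belong to that gene.

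The signalling chains of the B cell receptor differed from each other. Cd79b (chromosome 11, 106311341 to 106314762) had 4, 2 and 5 counts in control uninjured and 2, 2 and 3 in Nf1-KO uninjured libraries, then 10, 12 and 29 in control injured and 33, 6 and 39 in Nf1-KO injured ones. On the TMM scale the injured libraries were all above the uninjured ones, and 34.1% of all genes tested were separated in either direction. The closest were Nf1-KO injured 2 at 0.423 CPM and control uninjured 1 at 0.376. In raw CPM these 2 stood at 0.394 and 0.454. The log2 fold change was 2.06 ± 0.78 in control skin (SE, edgeR adjusted p = 0.0326) and 3.23 ± 0.81 in Nf1-KO skin (adjusted p = 0.00616). The call in control skin was lost without control uninjured 2 (1.78, edgeR adjusted p = 0.112), without control injured 3 (1.57, adjusted p = 0.136) and with limma voom (1.92, adjusted p = 0.0739).

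Cd79a (chromosome 7, 24897381 to 24902197), the partner that pairs with CD79B in the receptor, had at most 8 counts in any library. The counts were 7, 8 and 6 in control uninjured, 5, 4 and 1 in Nf1-KO uninjured, 0, 6 and 0 in control injured, and 6, 3 and 4 in Nf1-KO injured libraries. The 6 counts of control injured 2 stood alone in their group. In an edgeR fit with no filter on low counts, which called 38.9% and 21.1% of 49676 genes in the control and Nf1-KO injury comparisons, the log2 fold changes were -1.72 ± 1.00 (SE, adjusted p = 0.155) and 0.21 ± 0.97 (adjusted p = 0.944). Pooled over control libraries, 21 counts against 6 gave a level 4.54-fold lower with injury (95% exact interval 1.77 to 13.8), which covers counting error only and not the spread between libraries. In Nf1-KO skin, 10 counts against 13 gave a ratio of 1.02 (0.402 to 2.53). The edgeR fit with no filter called Cd79a in neither genotype.

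Ms4a1 (chromosome 19, 11249675 to 11266241), the CD20 gene, had 32, 35 and 15 counts in control uninjured and 15, 34 and 9 in Nf1-KO uninjured libraries. It had 1, 0 and 0 counts in control injured and 0, 6 and 14 in Nf1-KO injured libraries. Control libraries separated by skin state, as they did for 62.4% of all genes tested. Nf1-KO injured 3, at 1.07 raw CPM, stood above Nf1-KO uninjured 3, at 0.761. Pooled over control libraries, the level was 106-fold lower with injury, with a wide 95% exact interval (18.6 to 4255) because only 1 count remained. The edgeR log2 fold change in control skin was -6.03 ± 1.28 (SE, adjusted p = 0.00117), and -7.86 to -5.45 with each library left out in turn, called each time. In Nf1-KO skin it was -1.60 ± 0.89 and was not called (edgeR adjusted p = 0.161), but it was called without Nf1-KO injured 3 (-2.91, adjusted p = 0.026) and with limma voom (-2.65, adjusted p = 0.0461).

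Pax5 (chromosome 4, 44524757 to 44710487), the B cell identity factor, had 40, 29 and 13 counts in control uninjured and 16, 30 and 18 in Nf1-KO uninjured libraries. All 3 libraries of injured control skin were at 0 counts, and those of injured Nf1-KO skin had 1, 2 and 10. Both genotypes separated by skin state, as they did for 62.4% of all genes tested in control and 51.6% in Nf1-KO skin. Nf1-KO injured 3 was again the highest injured library, at 0.765 raw CPM beside 0.838 in control uninjured 3. Against a floor of 3 counts over the control injured group, the level was at least 35.5-fold lower with injury; in Nf1-KO skin it was 6.56-fold lower (95% exact interval 3.58 to 12.98). The log2 fold change in Nf1-KO skin was -2.38 ± 0.84 (SE, edgeR adjusted p = 0.0373), and the Pax5 fall in control skin had an edgeR adjusted p of 0.00045. The Nf1-KO call was lost when control uninjured 2, any Nf1-KO uninjured library, or Nf1-KO injured 1 or 2 was left out (-2.57 to -1.82, edgeR adjusted p = 0.0532 to 0.112), and was -4.01 (adjusted p = 0.00393) without Nf1-KO injured 3. Exons of Pax5 overlap annotated antisense and unclassified transcripts, and the library kit does not mark strand.

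**Figure D2:**
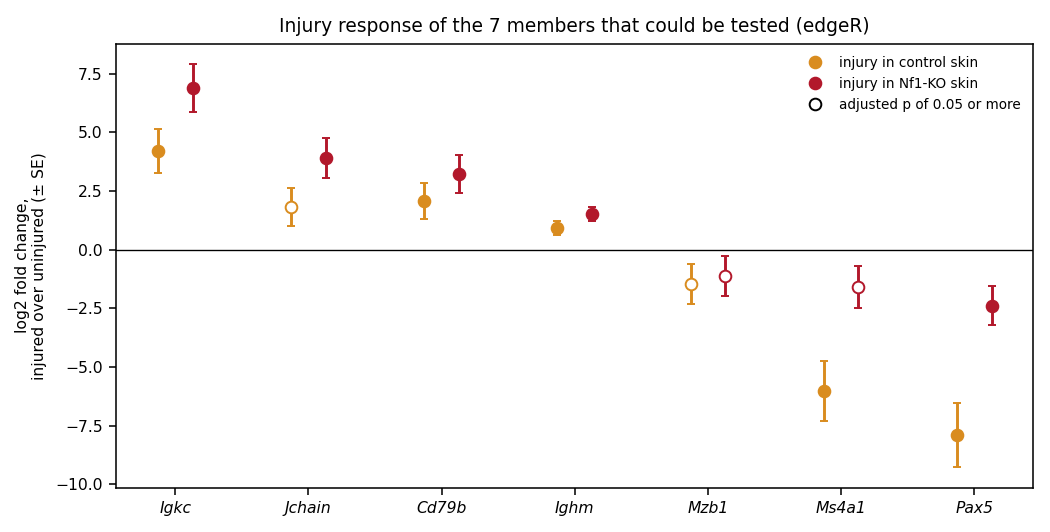
Log2 fold change of injured over uninjured skin (points) with its standard error (bars) for the 7 genes that passed the filter, in control (orange) and Nf1-KO (red) skin, with open points where the edgeR adjusted p was 0.05 or more. Igkc lies highest at 4.20 and 6.88, and Pax5 and Ms4a1 lie below 0 in both genotypes; the Pax5 point for control skin is a fitted value against 3 libraries at 0 counts.

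The 2 genes that fell were, in uninjured skin, close to the level of the nose receptor genes. Divided by the receptor level of the same library, Pax5 per kb was 1.00 to 1.56 in the 6 uninjured libraries and Ms4a1 per kb was 1.12 to 2.27. Among uninjured libraries both genes were highest in control uninjured 1, the library with the highest receptor level, and Pax5 was lowest in control uninjured 3, the library with the lowest. Jchain was at 0.272 to 0.816 of the receptor level in uninjured libraries, Cd79b at 0.475 to 2.39, Cd79a at 0.526 to 2.82 and Igkc at 0 to 3.86. Mzb1 stood at 3.07 to 6.31 times that level and Ighm at 26.3 to 95.02 times. In injured libraries the receptor level was far lower, and Igkc stood at 217 to 4286 times, Jchain at 19.3 to 302 times, Cd79b at 15.6 to 626 times and Ighm at 377 to 9887 times that level. Mzb1 and Cd79a, which were not called higher, stood at 0 to 173 and 0 to 112 times, so a high multiple does not mark a rise. Pax5 and Ms4a1 stayed at 0 to 3.07 and 0 to 5.67 times. When the receptor level was subtracted from all counts, Pax5 and Mzb1 no longer passed the filter. Of the 5 members still tested, 4 were called higher in each genotype (Igkc, Jchain, Cd79b and Ighm), and Ms4a1 was called lower in control skin (-5.04, edgeR adjusted p = 0.0127). Of all 21286 genes tested after subtraction, 52.0% were called in control skin and 38.7% in Nf1-KO skin. Jchain then stood at 6.89 in control skin (edgeR adjusted p = 0.0036). Jchain lay below the receptor level in every uninjured library, so the subtraction set it to 0 in all of them. Its larger rise and its calls after subtraction follow from that step and are no further evidence of a rise. The subtraction also left Cd79b at 0 in control uninjured 1 and 2 and in Nf1-KO uninjured 1 and 2. It left Igkc at 0 in control uninjured 2 and in Nf1-KO uninjured 2 and 3. The calls of Cd79b and Igkc after subtraction rest partly on the same step and are no further evidence either. The part of the receptor level in the fall of Pax5 and Ms4a1 was not tested beyond this subtraction.

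**Figure D3:**
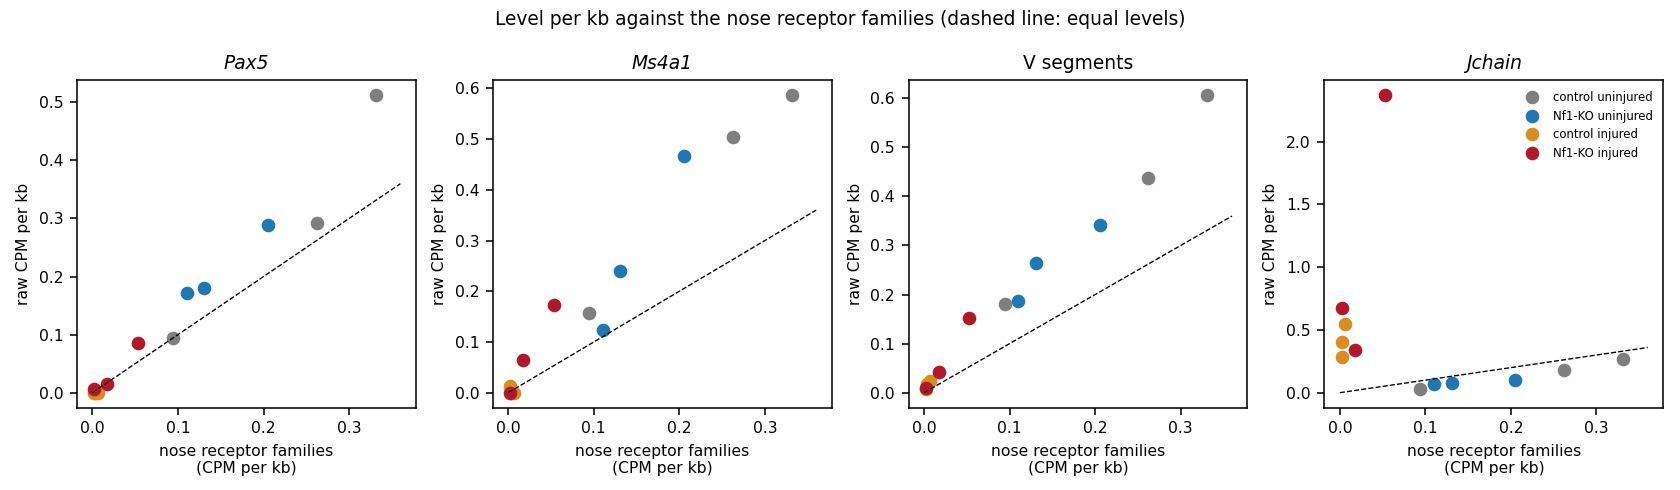
Raw CPM per kb of Pax5, Ms4a1, the immunoglobulin V segments (summed) and Jchain (vertical axes) against the level of the nose receptor families (horizontal axes, CPM per kb) in the 12 libraries, coloured by group, with a dashed line where both are equal. Pax5, Ms4a1 and the V segments are high where the receptor level is high, up to 0.512, 0.587 and 0.606 in control uninjured 1, whereas Jchain is highest, at 2.37, in Nf1-KO injured 3.

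Per kb of exon, the order of the 8 genes changed with skin state. In uninjured libraries the median level was 6.72 raw CPM per kb for Ighm, 0.663 for Mzb1, 0.354 for Ms4a1, 0.303 for Cd79a, 0.265 for Igkc, 0.234 for Pax5, 0.158 for Cd79b and 0.0901 for Jchain. Only Ighm (5.38 to 12.4) was separate from the next gene, Mzb1 (0.424 to 1.10); the ranges of all later neighbours in this order overlapped. In injured libraries the order by median was Ighm (15.2), Igkc (6.26), Cd79b (0.883), Jchain (0.478), Mzb1 (0.297), Cd79a (0.173), Ms4a1 (0.00637) and Pax5 (0.00342). Igkc (3.82 to 43.6) was separate from Cd79b (0.275 to 2.08), and its range overlapped that of Ighm (8.95 to 22.1). The ratio of Ighm to Igkc per kb was 16.1 to 41.5 in the 5 uninjured libraries with an Igkc count, and 0.459 to 4.09 in injured ones. The lowest value, 0.459, was that of Nf1-KO injured 3, the only library in which Igkc exceeded Ighm per kb.

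Between genotypes no member was called. In uninjured skin 0 of 7 passed in edgeR (0.0296% of all genes did), with 0 at an unadjusted p under 0.05 (8.34% of all genes) and 0 with DESeq2 and with limma voom. The log2 differences, Nf1-KO over control, ran from -0.99 ± 1.43 for Igkc to 0.07 ± 0.29 for Ighm (SE). In injured skin 0 of 7 passed in edgeR, as did 0.0% of all genes, with 4 at an unadjusted p under 0.05 (Pax5, Ms4a1, Igkc and Ighm), as had 10.7% of all genes. DESeq2 and limma voom called 0 members, and 0.571% and 0.00423% of all genes. The median log2 difference of the 7 was 1.43, beside 0.12 for all genes tested. Ighm was higher in all 3 Nf1-KO injured libraries than in any control injured one (29.5 to 41.6 against 16.9 to 27.8 raw CPM; log2 difference 0.66 ± 0.28, SE, edgeR adjusted p = 0.421). Pax5 groups did not overlap either, at 1, 2 and 10 counts against 0 in each control library. Over all genes tested, 9.05% had groups that did not overlap. For the exon length of Pax5, the nose receptor level alone equalled 0.326, 2.37 and 6.14 counts in Nf1-KO injured 1 to 3. In control injured libraries it equalled 0.252 to 0.946 counts. The part of that level in the Pax5 difference was not tested.

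Igkc and Jchain were higher on average in Nf1-KO injured skin, but their groups overlapped, since Nf1-KO injured 2 (2.03 and 0.853 raw CPM) lay within or below the range of control injured libraries (2.74 to 3.78 and 0.714 to 1.38). The log2 difference of Igkc was 1.69 ± 0.68 (SE, edgeR adjusted p = 0.399), and 0.11 (adjusted p = 1.0) without Nf1-KO injured 3. In the fit with no filter Igkc alone was called (1.55, edgeR adjusted p = 0.0434; 0.825% of all genes were called there). For Jchain it was 1.43 ± 0.70 (edgeR adjusted p = 0.488), and 0.22 (adjusted p = 1.0) without that library. Nf1-KO injured 3 was also the highest injured library for the summed macrophage markers (1265 raw CPM, beside 361 to 541 in control injured libraries), for plasmacytoid dendritic cell markers (610 beside 249 to 416) and for the pan-leukocyte gene Ptprc (75.04 beside 22.0 to 31.5), while Nf1-KO injured 2 was at 486, 256 and 30.4. All 7 macrophage markers and Ptprc were at an unadjusted edgeR p under 0.05 between genotypes in injured skin, and none was called; their part in the Igkc and Jchain values was not tested. The test of the difference between the injury responses of both genotypes called 0 of 7 members in edgeR and 0.0% of all genes, with 2 members (Pax5 and Ms4a1) and 10.8% of all genes at an unadjusted p under 0.05, and 0 members with DESeq2 and with limma voom. So although Jchain was called in Nf1-KO skin only and Ms4a1 in control skin only, their responses were not shown to differ (log2 differences 2.10 ± 1.20 and 4.43 ± 1.63, SE, edgeR adjusted p = 0.536 and 0.442).

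The other antibody constant genes show which classes accompanied Ighm. Igha, the IgA heavy chain gene, had 17, 33 and 19 counts in control uninjured, 10, 23 and 13 in Nf1-KO uninjured, 110, 66 and 60 in control injured, and 103, 63 and 512 in Nf1-KO injured libraries. All injured libraries were above all uninjured ones, and 34.1% of all genes tested were separated in either direction. Of the 678 counts of the Nf1-KO injured group, 512 came from Nf1-KO injured 3. The log2 fold change was 3.82 in Nf1-KO skin (edgeR adjusted p = 0.006) and 1.74 in control skin (adjusted p = 0.0897). Without Nf1-KO injured 3 the Igha value in Nf1-KO skin was 2.12 (edgeR adjusted p = 0.0037), and with limma voom it was 2.99 and missed the threshold (adjusted p = 0.0519). The IgG1 gene Ighg1 had 8 to 18 counts in uninjured and 16 to 21 in injured libraries and was not called in either genotype. The IgD gene Ighd, expressed by mature B cells with Ighm, had 22, 21 and 14 counts in control uninjured and 7, 6 and 7 in control injured libraries (-1.62, edgeR adjusted p = 0.0256), a call that was lost without control uninjured 1 or 2 or control injured 2 or 3 (adjusted p up to 0.117). In Nf1-KO skin Ighd had 21, 19 and 8 counts before and 21, 16 and 12 after injury (-0.21, edgeR adjusted p = 0.783). Of the other IgG genes, Ighg2c had 0 to 19 counts per library and was not called, and Ighg2b had 1 to 14. In uninjured libraries Igha stood at 2.18 to 4.87 times the nose receptor level and Ighd at 3.23 to 8.39 times. Ighg1 stood at 1.57 to 5.27 times and Ighg2b at 0.895 to 2.04 times. These counts, and the shares below, were not corrected for that level, which was far lower in injured libraries.

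As a share of all heavy chain constant counts, Ighm was the main class in 11 of the 12 libraries. It made up 60.9% to 79.5% in uninjured and 60.1% to 82.9% in the first 5 injured libraries, but 46.6% (95% exact interval 43.5 to 49.6) in Nf1-KO injured 3. There Igha held 48.3% (45.3 to 51.4) of 1059 counts. Igha held 30.9% (26.1 to 35.98) in control injured 1 and 11.4% to 12.4% in the other 4 injured libraries, beside 3.37% to 13.8% in uninjured skin. The uninjured shares of classes other than Ighm include counts close to the nose receptor level.

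**Figure D4:**
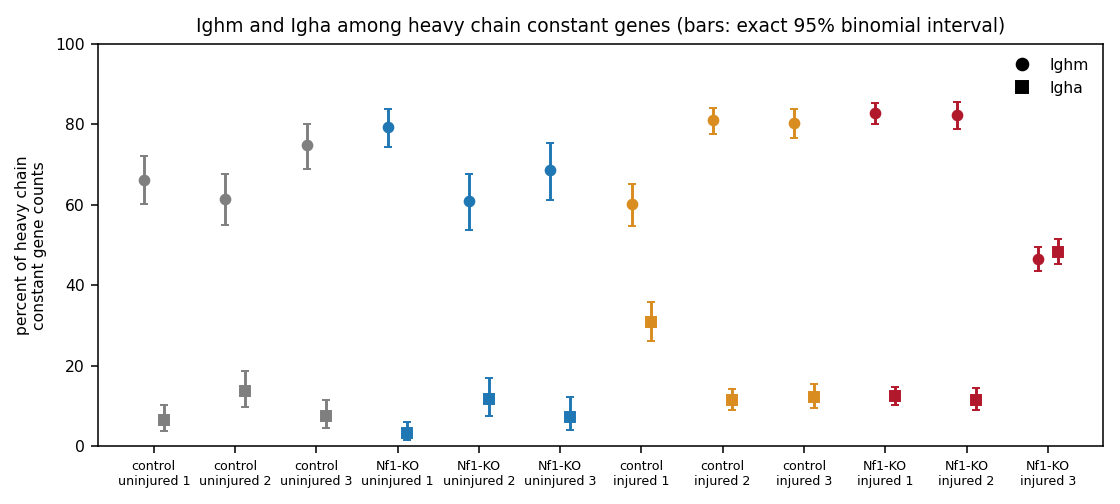
Percent of heavy chain constant gene counts that fell on Ighm (circles) and Igha (squares) in each of the 12 libraries, with exact 95% binomial intervals (counting error only), coloured by group. Ighm is above Igha in every library but Nf1-KO injured 3, where the shares are 46.6% and 48.3%.

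The variable (V) segments, of which each antibody uses 1 per chain, did not rise with the constant genes. Summed over 216 annotated V segments, uninjured libraries had 423, 389 and 223 counts in control and 211, 319 and 175 in Nf1-KO, and injured libraries had 7, 23 and 32 in control and 12, 50 and 158 in Nf1-KO. Per kb this was 1.67 to 2.03 times the nose receptor level in every uninjured library and 2.36 to 5.71 times in injured ones. Counts were spread over 85 to 161 segments per uninjured library and 5 to 65 per injured one. In Nf1-KO injured 3 the highest were Ighv1-81 with 13 counts, Iglv1 with 8 and Igkv1-110 with 7, beside 303 counts of Igkc.

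Other genes of the B lineage were read from lists of textbook markers. Beside the counts in these and the later lists, 55.3% of all genes tested were called in control skin, 22.8% higher and 32.5% lower. In Nf1-KO skin 37.4% of all genes tested were called, 19.1% higher and 18.4% lower. Of 15 tested genes of B cell identity and receptor signalling, 4 were higher and 5 lower with injury in control skin, and 4 higher and 4 lower in Nf1-KO skin. Ebf1, an early B lineage factor that stromal and fat precursors also express, was at 8.96 to 17.7 raw CPM in uninjured and 21.8 to 54.2 in injured libraries and was called higher in both genotypes (log2 fold changes 1.22 and 1.84, edgeR adjusted p = 0.00192 and 0.000134). Cxcr5, the receptor for Cxcl13 on follicular B cells and some T cells, was also higher in both, with 35 to 69 counts in uninjured and 89 to 206 in injured libraries (2.83-fold and 2.45-fold, edgeR adjusted p = 0.0113 and 0.034). Cd37, a tetraspanin of B cells and other leukocytes, had 62 to 95 and 114 to 302 counts (2.01-fold and 2.26-fold higher, the Nf1-KO groups overlapping in CPM, edgeR adjusted p = 0.0202 and 0.0136). Cd40, the receptor for T cell help on B cells that macrophages and dendritic cells also carry, had 16 to 20 and 27 to 79 counts (log2 fold changes 1.25 and 1.58, edgeR adjusted p = 0.0159 and 0.00679). In control skin the call was lost without control injured 1 for Cxcr5, without control uninjured 2 for Cd37, and without control uninjured 2 or control injured 3 for Cd40. In Nf1-KO skin it was lost without Nf1-KO uninjured 1 or 2 or Nf1-KO injured 1 or 3 for Cxcr5, and without Nf1-KO uninjured 2 or Nf1-KO injured 3 for Cd37. Cr2, the complement receptor CD21 of mature B cells, fell from 18 to 45 counts per library to 0 to 10 (log2 fold changes -3.84 and -2.43, edgeR adjusted p = 0.00254 and 0.0329), the latter call being lost without Nf1-KO uninjured 2 or Nf1-KO injured 1 or 2. In uninjured libraries Cr2 stood at 1.52 to 2.53 times the nose receptor level, Cd40 at 1.60 to 4.24 times, Cxcr5 at 4.39 to 15.9 times and Cd37 at 5.98 to 20.7 times. Bank1, a B cell scaffold protein, fell in control skin (-3.22, edgeR adjusted p = 0.00191) and was at -0.92 in Nf1-KO skin (adjusted p = 0.269); it stood at 2.38 to 4.10 times the nose receptor level in uninjured libraries. The summed level of the 19 listed genes was 125 to 173 raw CPM in uninjured and 118 to 206 in injured libraries.

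Of 12 tested plasma cell genes, 3 were higher and 3 lower in each genotype. Fkbp11 and Txndc5 were higher in both, Creld2 in control and Cd38 in Nf1-KO skin. Xbp1 and Eaf2 were lower in both, Prdm1 in control and Tent5c in Nf1-KO skin. With each library left out in turn, the Eaf2 log2 fold change was -2.47 to -1.89 in control skin, called each time. In Nf1-KO skin it was -1.59 to -1.16, called in 10 of 12 fits. The Cd38 rise in Nf1-KO skin was called in 7 of these fits (0.56 to 1.44, edgeR adjusted p up to 0.26). The Tent5c fall there was called in 9 (-1.68 to -0.86, edgeR adjusted p up to 0.175). Fkbp11, a protein-folding enzyme of secretory cells, was at 3.52 to 12.9 raw CPM in uninjured and 22.0 to 71.7 in injured libraries (log2 fold changes 2.80 in control and 2.74 in Nf1-KO skin, edgeR adjusted p = 0.00165 and 0.00284). Txndc5, a disulfide-forming enzyme of the same compartment that many secretory cells express, was also higher (1.36 and 1.62, edgeR adjusted p = 0.000274 and 7.45e-05). Xbp1, the transcription factor of the secretory programme, was lower in both (-0.65 and -0.91, edgeR adjusted p = 0.0339 and 0.00908). Its call in control skin was lost without any 1 of 6 libraries (adjusted p up to 0.205), and its call in Nf1-KO skin without Nf1-KO injured 1. Prdm1, which drives plasma cell fate, was lower in control skin (-0.72, edgeR adjusted p = 0.0109) and at -0.50 in Nf1-KO skin (adjusted p = 0.0819). The Prdm1 call was lost without control uninjured 2 or 3.

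Of 5 tested genes of early B cells and germinal centres, 3 were lower in control skin, and 1 was higher and 2 lower in Nf1-KO skin. Bcl6, a repressor of germinal centre B cells that other skin cells also express, fell from 103 to 171 raw CPM to 31.0 to 52.0 (-1.39 and -1.51, edgeR adjusted p = 0.000143 and 7.35e-05). Rag1, an enzyme that cuts antibody segments for joining, had 6 to 16 counts in uninjured and 0 to 4 in injured libraries, and lay at 0.621 to 1.16 times the nose receptor level in uninjured skin.

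Of 7 tested genes of B cell attraction, survival and antibody transport, 3 were higher in both genotypes and 1 was lower in control skin. Cxcl12, a chemokine that holds plasma cells in their niches, rose from 19.6 to 44.9 raw CPM in uninjured to 94.6 to 173 in injured libraries (log2 fold changes 1.85 and 2.56, edgeR adjusted p = 1.28e-05 and 6.77e-07). Cxcl13, which draws B cells into follicles, had 0 to 6 counts in uninjured and 8 to 32 in injured libraries (2.94 and 2.85, edgeR adjusted p = 0.0112 and 0.021), with the Nf1-KO call lost without Nf1-KO uninjured 1 or 3 or Nf1-KO injured 2. Tnfsf13, which encodes the plasma cell survival factor APRIL, was at 1.02 to 2.79 raw CPM and 2.92 to 10.7 (1.59 and 2.01, edgeR adjusted p = 0.00991 and 0.00407). Pigr, the receptor that carries polymeric IgA and IgM across epithelium, had 6 to 31 counts in uninjured libraries (1.14 to 5.85 times the nose receptor level) and 0 to 11 in injured ones (-5.86 in control, edgeR adjusted p = 0.00196; -2.48 in Nf1-KO, adjusted p = 0.0559).

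Markers of other cells moved with skin state too, and their part in the results above was not tested. Of 7 macrophage markers 6 were higher in control and 7 in Nf1-KO skin, with a summed level of 110 to 178 raw CPM in uninjured and 361 to 1265 in injured libraries. Of 7 tested markers of plasmacytoid dendritic cells, which can also express Mzb1, 5 were higher and 1 lower in each genotype (108 to 154 and 249 to 610 raw CPM, over 8 genes). Mast cell markers rose in 4 of 5 in each genotype. Of 9 T cell markers, 1 was higher and 2 lower in control skin and 1 higher and 4 lower in Nf1-KO skin (118 to 173 raw CPM in uninjured and 61.8 to 92.1 in injured libraries). Genes of lymph node stroma summed to 8.92 to 27.2 raw CPM in uninjured and 22.6 to 56.3 in injured libraries, with 2 of 3 called higher in control and 1 of 3 in Nf1-KO skin.

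The genes whose levels followed each member most closely differed between the rising and the falling members. Likeness was Pearson's r of log2(CPM + 0.5) over the 12 libraries against 18772 genes, and is a description, since all genes of a library share its depth and group. For Pax5 the closest were Olfr801, Gm17917 and Gm7281 (r = 0.993 to 0.994), and 617 genes reached r of 0.95, of which 74 were nose receptor genes. For Ms4a1 they were Gm37846, A930027P06Rik and Gm10646 (0.989 to 0.992), with 308 genes of which 48 were nose receptors. For Igkc the closest were Tmem263, Plxnd1 and Gm26719 (0.985 to 0.991), for Jchain Itga1, Clec12a and Tifab (0.968 to 0.977), and for Ighm Dab2, Fcgrt and Clec3b (0.958 to 0.962). The genes at r of 0.95 or more numbered 146, 23 and 9 for these 3 members, and no nose receptor was among them. The receptor level was lower in every injured library than in any uninjured one. A gene that rose with injury could therefore hardly reach such an r with a receptor, so the absence of receptors adds no information. The share of nose receptors among all genes compared is not given here. Within groups, by deviations from the group means, the closest gene to Igkc was Ciita, the master regulator of MHC class II genes (r = 0.985), and the closest to Jchain was Gnaz (0.980). Igkc spread most among Nf1-KO injured libraries 1 to 3, at 5.38, 2.19 and 26.1 CPM after TMM scaling, so its r rests largely on that group. Within groups 36 genes reached r of 0.95 for Pax5 and 27 for Ms4a1, with 5 nose receptors each. For Igkc and Jchain 12 and 9 genes did, with 0 nose receptors. Cd79a, Cd79b and Mzb1 averaged under 1 CPM and were not compared.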

How the data were processed

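RNA came from whole skin (12 libraries), amplified with Smart-Seq v4 and made into unstranded Nextera XT libraries, per the labels' protocols. The authors deposited whole-number read counts by Ensembl gene ID, 1 library per column per the file headers; HTSeq 0.5.3, STAR 2.5.2b, SAMtools, HOMER and DESeq2 with mm10 are named in the submitters' processing notes, without roles. Annotation and strand setting: not given in the sources used here. Of 53379 IDs, 53274 matched GENCODE M21; the 105 unmatched held at most 0.0454% of a library's counts. The tables hold 1 column of no listed sample, not used here. Libraries of a group differed beyond sampling noise (chi-square per degree of freedom 11.4 to 102 over 12 pairs).

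The 12 libraries were fitted in edgeR 4.0.16 (R 4.3.3) with 4 group means, TMM scaling, the default filter (count minimum 10) and a 2-sided robust quasi-likelihood F test, with Benjamini-Hochberg adjustment over all genes tested. The fit was tested on simulated data. Intervals are exact at 95% and, like the floor of 3 counts per group, cover counting error only. The alternatives were no filter, a stricter one (2 CPM in 3 libraries), RLE scaling, DESeq2 1.42.0, limma voom (3.58.1), the compared groups alone, a replicate block, subtraction of the nose receptor level, and libraries left out. All 8 members are named; of the other lists, genes among up to 4 called in each direction with the smallest p, and constant genes with 10 or more counts in a library. The text gives a selection of these made after their values were seen. Members and lists were chosen with earlier results of these data known.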

Additional observations from a re-analysis of the deposited data

How the results depend on the processing

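The number of members called with injury in control skin, 5, was 4 to 6 when 1 library was left out (44.8% to 58.8% of all genes called); in Nf1-KO skin, 5, it was 4 to 6 (22.5% to 39.6%), averaged over genotypes, 6, it was 6 to 7 (59.1% to 65.5%), and in the other comparisons 0 throughout. It was 2 in control skin (0 higher, 2 lower) without control uninjured 1 and 2, the libraries of highest receptor level, which leaves 1 control uninjured library assumed to vary like the other groups; Igkc (4.12, edgeR adjusted p = 0.0713), Ighm (1.06, adjusted p = 0.0936) and Cd79b (1.90, adjusted p = 0.226) then missed the threshold, and the share of all genes called fell too, from 55.3% to 23.9%. It was 3 in Nf1-KO skin under the filter of 2 CPM, which left 4 members to test (43.7% of all genes called), and 1 for Nf1-KO in injured skin with no filter (0.825%). Without Nf1-KO injured 2 and 3, 6 of 7 were called in either injury comparison (4 higher, 2 lower), beside 59.2% of all genes in control and 31.9% in Nf1-KO skin; the lone Nf1-KO injured library is likewise assumed to vary like the other groups. The deviations of same-numbered libraries correlated at -0.366 to 0.405 over 18 pairs, and those of differently numbered ones at -0.379 to 0.321 over 36. Of the 12 libraries, 6 correlated best with a library of their own number. The ranges overlap and do not settle whether replicate numbers pair the libraries. With the replicate block 5, 4 and 6 members were called in control, Nf1-KO and averaged injury comparisons (53.9%, 34.6% and 63.5% of all genes), Pax5 in Nf1-KO skin being at -2.43 (edgeR adjusted p = 0.0682). Log2 values that changed sign were, but for Spib, uncalled. For Nf1-KO in uninjured skin they were, without control uninjured 1 and 2, Pax5 (1.08), Ms4a1 (0.71), Jchain (1.48) and Mzb1 (0.51); with limma voom, Pax5 (0.0018) and Ighm (-0.013); Ighm also after background subtraction (-0.0054); and, with 1 library left out, Pax5 (-0.74 to 0.25) and Ighm (-0.41 to 0.27). For Nf1-KO in injured skin they were Ms4a1 without Nf1-KO injured 2 and 3 (-1.86), and Mzb1 with no filter (-0.010), RLE scaling (-0.019) and 1 library left out (-0.52 to 0.57). For the difference between responses they were Ms4a1 without Nf1-KO injured 2 and 3 (-1.44), Jchain (-0.063) and Mzb1 (-0.44) without control uninjured 1 and 2, and Mzb1 with 1 library left out (-0.27 to 0.82). Spib, a B cell factor called lower in control skin, was at 0.34 without control uninjured 1 and 2. The cause of these changes was not tested. RLE scaling moved the median of all genes by -0.11 for injury in Nf1-KO skin and by less elsewhere. Members other than Ighm had under 100 counts in most libraries, which limits what the tests can detect.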
